A study of Homo sapiens with 12 samples.

Results

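The genes described here are 10 DNA replication genes, MCM2, MCM3, MCM4, MCM5, MCM6, MCM7, PCNA, CDC6, CDC45 and GINS2, chosen by name and found by symbol among the 58721 genes of the count table. They and the gene lists below were chosen with earlier results of these data known. Each of the 10 matched 1 row, and all 10 were among the 21013 genes with enough counts to be tested. In cells entering the cycle, the origin recognition complex, CDC6 and CDT1 load the ring of MCM2 to MCM7, the replicative helicase, onto DNA as an inactive double ring, which is called licensing. In S phase, CDC45 and the GINS complex, of which GINS2 is a subunit, join that ring to form the active helicase, and PCNA is the sliding clamp that holds the polymerases on the template. Many of these genes are known targets of the E2F factors, and their RNA is known to be high in dividing cells.

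The libraries came from EW8 and TC71, established Ewing sarcoma cell lines, in which RNA was sequenced in 12 libraries, 3 for each of 4 groups. Both lines carried the same pair of lentiviral constructs in every group: a Tet-On 3G transactivator driven by the EF1 alpha promoter, and c-Jun and c-Fos joined by a self-cleaving peptide behind the TRE3G promoter, which doxycycline switches on. Cells had been selected with geneticin and puromycin. The groups were EW8 vehicle, EW8 doxycycline, TC71 vehicle and TC71 doxycycline, with doxycycline given at 2000 ng/ml for 72 h and DMSO as the vehicle. The effect of doxycycline itself and that of c-Jun and c-Fos cannot be told apart, because lines without the inducible construct were not analysed here. The labels do not say that the 3 libraries of a group came from separate cultures, so p-values measure the spread between these libraries, which may be technical.

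Positions are those of the count table, on hg38. MCM2 (ENSG00000073111) lies on chromosome 3, 127598223 to 127622436, plus strand. MCM3 (ENSG00000112118) is at 52264009 to 52284881 on the minus strand of chromosome 6. MCM4 (ENSG00000104738) lies on chromosome 8, 47960185 to 47978160, plus strand. MCM5 (ENSG00000100297) is at 35400063 to 35425430 on the plus strand of chromosome 22. MCM6 (ENSG00000076003) lies on chromosome 2, 135839626 to 135876426, minus strand. MCM7 (ENSG00000166508) is at 100092728 to 100101940 on the minus strand of chromosome 7. PCNA (ENSG00000132646) lies on chromosome 20, 5114953 to 5126626, minus strand. CDC6 (ENSG00000094804) is at 40287633 to 40304657 on the plus strand of chromosome 17. CDC45 (ENSG00000093009) lies on chromosome 22, 19479459 to 19520612, plus strand. GINS2 (ENSG00000131153) is at 85676198 to 85690073 on the minus strand of chromosome 16. Counts are summed over all exons of a gene, untranslated parts included.

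Library totals ranged from 42860665 to 60853649 counts. JUN was at 18.04 to 25.35 CPM (counts scaled to the size of each library) in the 6 vehicle libraries and at 422 to 814 CPM in the 6 doxycycline libraries. FOS was at 36.8, 37.6 and 35.9 CPM in EW8 vehicle and 999 to 1139 CPM in EW8 doxycycline, and at 11.2, 12.1 and 11.8 CPM in TC71 vehicle and 1450 to 1686 CPM in TC71 doxycycline, so that the treatment labels and the induced genes went together in all 12 libraries. Of 7 Ewing sarcoma markers, 7 were above 6 counts in some library of each EW8 group and of TC71 doxycycline, and 6 in TC71 vehicle. CD99, the surface protein used in diagnosis, was at 480 to 1255 CPM across the libraries and was higher after doxycycline in both lines. Not all of these markers moved that way. In EW8, LIPI was at 43.9 to 50.2 CPM under vehicle and 16.3 to 20.4 CPM after doxycycline. NKX2-2 was at 38.0 to 45.2 and 22.9 to 28.3 CPM there. CCK held only 0 to 10 counts in TC71 doxycycline. Of 4 leukocyte markers, PTPRC was at 59.6 to 77.4 CPM in EW8 and at most 0.145 CPM in TC71, while CD3E, a T cell gene, held 2 counts at most. The summed level of the 4 leukocyte markers was 64.9 to 73.0 CPM in EW8 vehicle, 75.0 to 80.2 in EW8 doxycycline and 0.430 or less in TC71. The 3 endothelial markers summed to 7.22 to 8.48 CPM in EW8 vehicle and 36.1 to 43.7 in EW8 doxycycline, mostly PECAM1, and to at most 0.0388 and 4.604 CPM in TC71 vehicle and doxycycline. The 3 epithelial markers, mostly KRT18, summed to 4.13 to 5.73 and 20.9 to 21.4 CPM in EW8 and to 174 to 212 and 223 to 237 CPM in TC71. Of 3 skeletal muscle markers, DES reached 5.56 CPM in EW8 doxycycline, and MYOD1 and MYOG, which define that lineage, held 0 counts in all 12 libraries. The part of these markers in the results was not tested.

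One library stood apart. TC71 vehicle replicate 1 differed from the other TC71 vehicle libraries by a median of 0.242 and 0.256 on the log2 scale over genes, against 0.131 to 0.184 for the other pairs within a group. It held the lowest level of its group for 10 of the 10 genes, at a median of 15.9% below the mean of the other 2 libraries. Without it, the log2 fold changes of doxycycline against vehicle in TC71 ran from -1.27 for MCM2 to -0.63 for CDC6, against -1.11 and -0.52 with it, and 10 of the 10 genes were lower either way, where without it 23.9% of all tested genes were.

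Promoter sequences are shown for 6 of the genes because E2F sites are a well-known feature of this family. CDC45 is among them as the only one of the 10 genes that did not pass as lower in EW8. RefSeq windows on GRCh38.p14, from 250 bases before to 50 bases after the annotated gene start, were found for 8 of the 10 genes, MCM4 and MCM5 not among them. The E2F letters searched were TTTCCCGC, TTTGGCGC, TTTCGCGC and TTTGCCGC, on both strands. The 250 bases before the start are printed 5′ to 3′ on the gene's strand, with matches that lie wholly within them in capitals. They are MCM6 at chr2:135876444-135876693, minus strand; MCM3 at chr6:52284743-52284992, minus strand; MCM7 at chr7:100101398-100101647, minus strand. The others are GINS2 at chr16:85688955-85689204, minus strand; PCNA at chr20:5126623-5126872, minus strand; CDC45 at chr22:19479670-19479919, plus strand.
MCM6: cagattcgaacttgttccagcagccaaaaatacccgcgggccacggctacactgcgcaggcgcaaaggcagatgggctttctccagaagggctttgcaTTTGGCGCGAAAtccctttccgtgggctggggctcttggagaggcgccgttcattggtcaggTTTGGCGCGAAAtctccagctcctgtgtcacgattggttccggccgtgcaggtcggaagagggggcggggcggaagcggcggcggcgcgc
MCM3: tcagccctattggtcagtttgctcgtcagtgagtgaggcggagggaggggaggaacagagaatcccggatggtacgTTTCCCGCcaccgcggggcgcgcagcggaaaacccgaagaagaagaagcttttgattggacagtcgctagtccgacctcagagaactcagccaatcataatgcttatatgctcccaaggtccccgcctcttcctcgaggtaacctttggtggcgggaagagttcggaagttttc
MCM7: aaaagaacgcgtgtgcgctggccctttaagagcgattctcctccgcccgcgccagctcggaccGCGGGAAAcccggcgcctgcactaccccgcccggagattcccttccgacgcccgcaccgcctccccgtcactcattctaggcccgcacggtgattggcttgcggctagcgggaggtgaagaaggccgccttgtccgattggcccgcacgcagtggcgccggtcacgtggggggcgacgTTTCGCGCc
GINS2: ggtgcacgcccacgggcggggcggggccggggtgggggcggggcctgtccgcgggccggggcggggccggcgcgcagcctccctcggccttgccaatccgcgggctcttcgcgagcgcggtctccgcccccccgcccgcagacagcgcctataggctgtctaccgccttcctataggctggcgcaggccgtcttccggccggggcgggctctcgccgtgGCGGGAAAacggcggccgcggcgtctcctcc
PCNA: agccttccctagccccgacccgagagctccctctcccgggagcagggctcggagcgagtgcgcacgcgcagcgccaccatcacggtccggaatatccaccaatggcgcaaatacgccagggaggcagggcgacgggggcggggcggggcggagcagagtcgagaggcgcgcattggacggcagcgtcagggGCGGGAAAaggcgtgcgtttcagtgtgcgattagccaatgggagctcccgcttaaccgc
CDC45: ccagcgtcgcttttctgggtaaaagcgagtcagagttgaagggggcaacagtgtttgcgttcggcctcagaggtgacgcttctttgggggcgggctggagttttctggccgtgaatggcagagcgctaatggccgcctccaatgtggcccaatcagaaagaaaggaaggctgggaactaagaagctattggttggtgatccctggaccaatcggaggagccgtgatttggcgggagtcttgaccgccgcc

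In MCM6 the forward match TTTGGCGC overlaps the reverse match GCGCGAAA at both of its places, so that 4 matches make 2 sites. A match to the E2F letters was found in the windows of 7 of the 8 genes, CDC6, GINS2, MCM2, MCM3, MCM6, MCM7 and PCNA, against 3.99% of the 27305 genes with a window. In MCM2 and CDC6 the match lies after the gene start, and in MCM3 a second match spans it. MCM2 and CDC6, which are not printed, thus held no match before the start, and neither did CDC45. MCM2 and CDC6 passed as lower in EW8 (-0.69 and -0.38 on the log2 scale). The part of these sites in the responses was not tested. The 3 windows of CDC45 held none of the E2F letters. The printed CDC45 sequence does hold tttggcgg, which differs from the searched TTTGGCGC only in its last base, as does the CDC6 window. The lack of a match in CDC45 thus depends on the forms searched. The CCAAT box was found for 7 of the 8 genes, MCM2 being the exception, against 39.7% of genes, and the GC box GGGCGG for 6, against 48.3%. The CHR element TTTGAA, the AP-1 site TGACTCA and the CRE TGACGTCA were in 0 of the 13 windows of the 8 genes, against 18.2%, 6.05% and 2.25% of genes. These matches are a description of letters in short windows, and other forms of the sites were not searched.

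**Figure D1:**
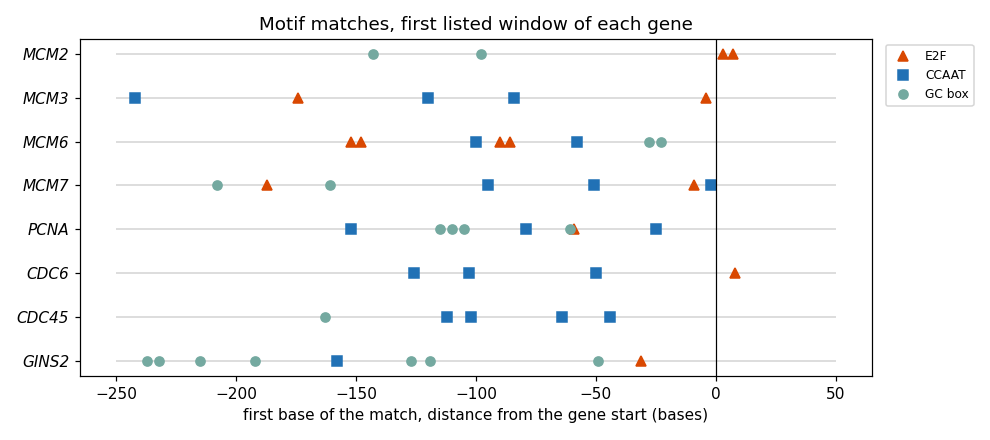
Position of E2F, CCAAT and GC box matches in 1 promoter window of each of the 8 genes; the x axis is the distance of the first base of a match from the gene start, in bases, and the grey lines span the window. Matches to the searched E2F letters are seen in 7 genes and not in CDC45, and other E2F forms were not searched.

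Induction of c-Jun and c-Fos went with lower RNA of nearly all of these genes. At an adjusted p under 0.05 (edgeR quasi-likelihood test, Benjamini-Hochberg over all genes tested), 9 of the 10 fell in EW8 and 10 of the 10 in TC71, where 22.0% and 20.4% of all tested genes were lower and 21.9% and 25.1% higher. The median log2 fold change of the 10 genes was -0.59 in EW8 and -0.95 in TC71, against -0.03 and 0.00 over all genes tested. With a log2 fold change under -1 also required, 0 of the 10 passed in EW8 and 3 in TC71 (MCM2, MCM6 and GINS2, with MCM7 just outside at -0.997), where 3.38% and 3.67% of all genes did. That TC71 count depended on the libraries in the fit. It was 7 without TC71 vehicle replicate 1, where 4.29% of all genes passed, with MCM3 (-1.11), MCM5 (-1.13), MCM7 (-1.16) and PCNA (-1.06) added, and 6 without EW8 vehicle replicate 3 or any 1 of the EW8 doxycycline libraries. It was also 7 under upper-quartile scaling or by library size alone, and 5 with at least 10 counts in every library or with counts halved. In bulk RNA, fewer cells in the stages that express these genes and less RNA per cell cannot be told apart.

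**Figure D2:**
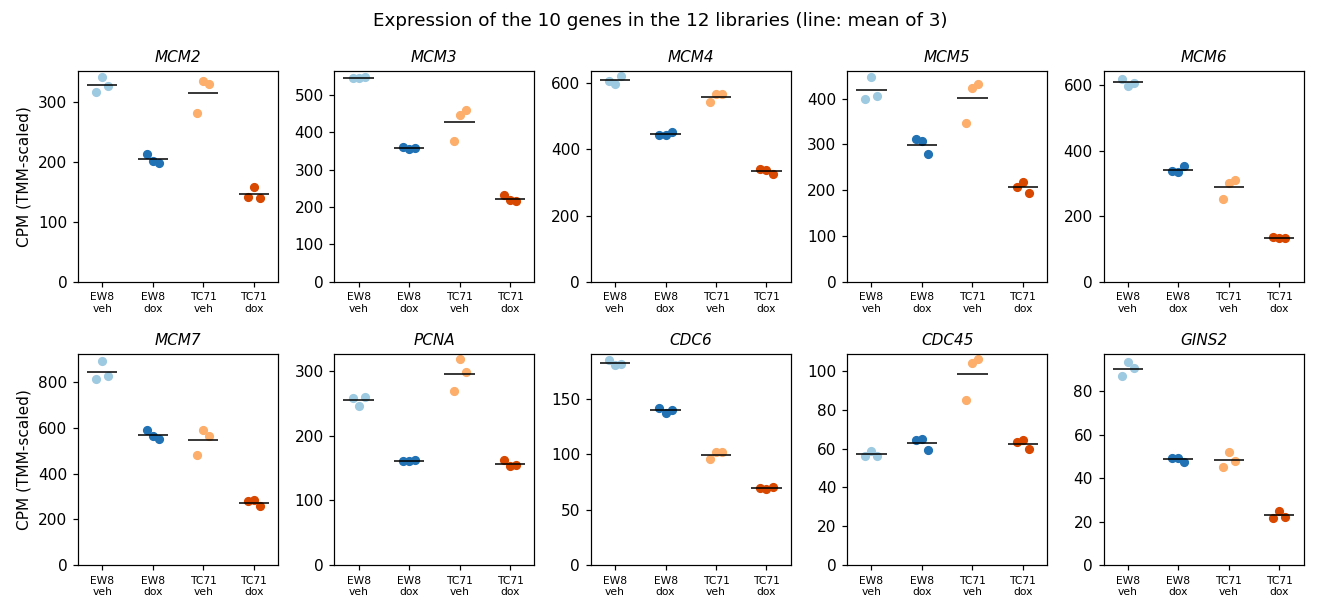
Scaled CPM (y axis, from 0) of each of the 10 genes in each of the 12 libraries; points are libraries and lines are group means. Doxycycline libraries lie below the vehicle libraries of the same line for every gene in TC71 and for every gene but CDC45 in EW8. The share of all tested genes with such a separation is not given here.

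The helicase subunits fell together. MCM2 was at 317, 342 and 327 CPM in the EW8 vehicle libraries and 213, 202 and 197 CPM after doxycycline. In TC71 the vehicle libraries held 281, 335 and 330.1 CPM and the doxycycline libraries 142, 158 and 139.5 CPM. The doxycycline libraries lay below all vehicle libraries in both lines. Such separation is given for this and the following genes as a description only, without the share over all tested genes. The log2 fold change was -0.69 ± 0.07 (SE) at an adjusted p of 1.47e-07 in EW8 and -1.11 ± 0.07 (SE) at an adjusted p of 1.79e-10 in TC71, which is 37.9% and 53.6% less RNA. Of the exonic bases of MCM2, 23.6% also lie in genes on the opposite strand, chiefly ENSG00000285600, and reads over both genes were left out of the counts.

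MCM3 was at 545, 544 and 547 CPM in the EW8 vehicle libraries and 360.5, 356 and 357 CPM after doxycycline. The TC71 libraries held 378, 445 and 459 CPM under vehicle and 231, 219 and 215 CPM after doxycycline. The EW8 groups were tight and far apart, and the TC71 vehicle libraries were more spread. The loss of MCM3 RNA was 34.4% in EW8 against 48.1% in TC71, which on the log2 scale is -0.61 ± 0.06 (SE) at an adjusted p of 1.86e-07 and -0.95 ± 0.06 (SE) at an adjusted p of 3.86e-10.

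MCM4 was at 607, 598 and 623 CPM in the EW8 vehicle libraries and 444, 444 and 454 CPM after doxycycline. Levels in TC71 were 544, 567 and 569 CPM under vehicle and 341, 339 and 325 CPM after doxycycline. No library of one treatment reached the range of the other. MCM4 had the smallest estimates among the 6 subunits, although in EW8 within the error of MCM5, with log2 fold changes of -0.45 ± 0.04 (SE) at an adjusted p of 1.89e-07 in EW8 and -0.74 ± 0.05 (SE) at an adjusted p of 1.45e-10 in TC71.

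MCM5 was at 399.8, 448 and 407 CPM in the EW8 vehicle libraries and 311, 308 and 279 CPM after doxycycline. For TC71 the values were 347, 423 and 431 CPM under vehicle and 208, 218 and 194 CPM after doxycycline. The groups did not overlap, although the lowest TC71 vehicle library, replicate 1, was well below the other 2. The log2 fold change of MCM5 was -0.48 ± 0.08 (SE) at an adjusted p of 4.37e-05 in EW8 and -0.96 ± 0.08 (SE) at an adjusted p of 7.69e-09 in TC71.

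MCM6 was at 619, 598 and 607 CPM in the EW8 vehicle libraries and 338, 334 and 354 CPM after doxycycline. In TC71 the vehicle libraries held 251, 302 and 311 CPM and the doxycycline libraries 136, 135 and 134 CPM. MCM6 after doxycycline in EW8 remained above MCM6 under vehicle in TC71 in every library. It had the largest estimate of the 6 subunits in EW8, -0.83 ± 0.06 (SE) at an adjusted p of 5.71e-09, and its log2 fold change in TC71 was -1.09 ± 0.07 (SE) at an adjusted p of 1.06e-10.

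MCM7 was at 815, 892 and 828 CPM in the EW8 vehicle libraries and 589.9, 564 and 552 CPM after doxycycline. The TC71 libraries held 483, 590.5 and 565 CPM under vehicle and 280.1, 283 and 258 CPM after doxycycline. The groups of a line did not overlap. The log2 fold change was -0.57 ± 0.07 (SE) at an adjusted p of 1.23e-06 in EW8 and -0.997 ± 0.07 (SE) at an adjusted p of 6.16e-10 in TC71. Of its exonic bases, 8.94% are shared with AP4M1 on the opposite strand.

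CDC6, the loader that brings the MCM ring to the origin, had smaller estimates than the ring subunits. CDC6 was at 185, 180.4 and 182 CPM in the EW8 vehicle libraries and 142, 138 and 140.1 CPM after doxycycline. Levels in TC71 were 95.5, 102 and 102 CPM under vehicle and 69.9, 69.0 and 70.0 CPM after doxycycline. The 3 libraries of each group lay close together and the groups were apart. Its log2 fold change of -0.38 ± 0.05 (SE) at an adjusted p of 4.84e-06 in EW8 and -0.52 ± 0.05 (SE) at an adjusted p of 1.05e-07 in TC71 was the smallest estimate among the genes that fell in each line.

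GINS2 and CDC45, which join the ring to form the active helicase, parted in EW8. GINS2 was at 86.7, 93.5 and 90.5 CPM in the EW8 vehicle libraries and 49.3, 49.2 and 47.3 CPM after doxycycline. For TC71 the values were 45.1, 52.1 and 48.0 CPM under vehicle and 21.8, 24.8 and 22.3 CPM after doxycycline. GINS2 fell by 46.1% in EW8, the largest estimate of the 10 there, and by 52.6% in TC71. These are log2 fold changes of -0.89 ± 0.07 (SE) at an adjusted p of 8.75e-09 and -1.08 ± 0.07 (SE) at an adjusted p of 8.1e-10.

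CDC45 was at 56.2, 59.0 and 55.9 CPM in the EW8 vehicle libraries and 64.5, 65.1 and 59.2 CPM after doxycycline. In TC71 the vehicle libraries held 85.2, 104 and 106 CPM and the doxycycline libraries 63.3, 64.4 and 59.8 CPM. In EW8 each doxycycline library was above each vehicle library, by as little as 59.2 against 59.0 CPM, and the log2 fold change of 0.14 ± 0.08 (SE) at an adjusted p of 0.154, with a 95% interval of -0.02 to 0.30, did not pass. In TC71 the doxycycline libraries were the lower ones and CDC45 fell by 36.5%, or -0.66 ± 0.08 (SE) at an adjusted p of 1.11e-06 on the log2 scale. The EW8 change passed as an increase under 3 alternatives, among them the fit without TC71 vehicle replicate 1 (0.19, adjusted p 0.00993) and EW8 fitted alone (0.19, adjusted p 0.0129). The ratio of CDC45 to GINS2 in CPM was 0.618 to 0.648 in the EW8 vehicle libraries and 1.25 to 1.32 after doxycycline. In TC71 it was 1.89 to 2.21 under vehicle and 2.60 to 2.91 after doxycycline.

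PCNA, the clamp, followed the helicase subunits. PCNA was at 259, 247 and 260.5 CPM in the EW8 vehicle libraries and 162, 160.3 and 162 CPM after doxycycline. The TC71 libraries held 269, 318 and 298 CPM under vehicle and 163, 154 and 154 CPM after doxycycline. The treatments did not overlap in either line, and the doxycycline libraries of the 2 lines lay in nearly the same range. The log2 fold change was -0.66 ± 0.06 (SE) at an adjusted p of 3.4e-08 in EW8 and -0.91 ± 0.06 (SE) at an adjusted p of 3.34e-10 in TC71.

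**Figure D3:**
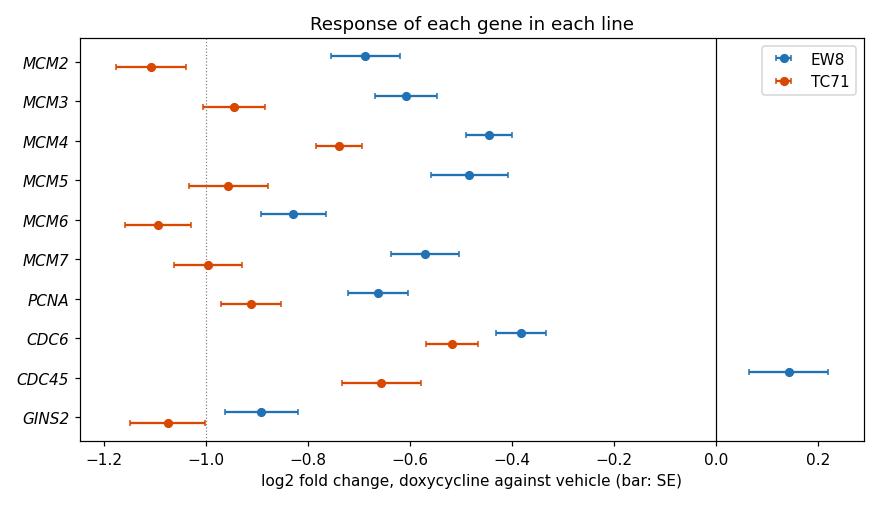
Log2 fold change of doxycycline against vehicle (x axis) for each of the 10 genes in EW8 and TC71; points are edgeR estimates, bars are standard errors and the dotted line marks -1. All points but CDC45 in EW8 lie left of 0, and the TC71 point lies left of the EW8 point for all 10 genes.

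The decrease was larger in TC71 for most of the genes. The difference of the responses, TC71 minus EW8, was negative for all 10 and passed for 8, where 7.07% of all genes tested had a more negative and 12.2% a more positive response in TC71. That split of all genes depended on the scaling, the filter and the libraries. It was 1485 more negative and 2572 more positive genes in the main fit, and 2060 and 2015 after upper-quartile scaling. With counts halved it was 2235 and 1885, and with at least 10 counts in every library 2188 and 1653. More genes were also more negative than more positive without EW8 vehicle replicate 3 (1681 and 1552) or any 1 of the EW8 doxycycline libraries. CDC45 had the largest difference, -0.80 ± 0.11 (SE) at an adjusted p of 3.18e-05. Among the ring subunits the difference ran from -0.27 ± 0.09 (SE) at an adjusted p of 0.049 for MCM6 to -0.47 ± 0.11 (SE) at an adjusted p of 0.00419 for MCM5. MCM2 differed by -0.42, MCM7 by -0.43, MCM3 by -0.34, MCM4 by -0.29 and PCNA by -0.25 (adjusted p 0.0423). CDC6 (-0.14, adjusted p 0.212, 95% interval -0.29 to 0.01) and GINS2 (-0.18, adjusted p 0.247, 95% interval -0.40 to 0.03) did not pass. Without TC71 vehicle replicate 1 all 10 passed, where 14.1% of all genes had a more negative and 9.45% a more positive response in TC71, so that the split of all genes turned as well. In that fit the difference was -0.62 for MCM2, -0.54 for MCM3, -0.44 for MCM4, -0.69 for MCM5, -0.48 for MCM6, -0.63 for MCM7, -0.44 for PCNA, -0.29 for CDC6, -0.36 for GINS2 and -1.02 for CDC45. The calls of MCM6 and PCNA were lost without EW8 vehicle replicate 1 or 2, TC71 vehicle replicate 2 (adjusted p 0.112 and 0.121), or TC71 doxycycline replicate 2 or 3, and that of MCM6 also without TC71 doxycycline replicate 1. JUN and FOS also rose more in TC71, by 0.73 and 2.21 on the log2 scale. As TC71 minus EW8, FOS was at -1.65 under vehicle and 0.55 under doxycycline, and JUN at -0.06 and 0.67. The larger rise of FOS thus came mostly from its lower vehicle level in TC71. The part of JUN and FOS in the difference of the 10 genes was not tested.

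The lines differed before induction as well. Under vehicle, 6 of the 10 genes were lower in TC71 and 2 higher, where 33.5% and 28.2% of all genes were. As TC71 minus EW8 on the log2 scale, MCM6 differed by -1.08 (adjusted p 6.65e-11), GINS2 by -0.90, CDC6 by -0.87, MCM7 by -0.63 and MCM3 by -0.35. MCM4 passed narrowly (-0.12, adjusted p 0.0247) and did not without TC71 vehicle replicate 1 (0.01, adjusted p 0.889), nor without TC71 vehicle replicate 3, EW8 vehicle replicate 3 or any 1 of the EW8 doxycycline libraries. Its call was also lost under median-ratio scaling (adjusted p 0.0649), without the filter on low counts (0.0823), with at least 10 counts in every library (0.167), with counts halved (0.101) and with a replicate block (0.158), so that 10 of 21 alternatives kept it. CDC45 was higher in TC71 by 0.79 and PCNA by 0.21. MCM2 (-0.06, adjusted p 0.472) and MCM5 (-0.06, adjusted p 0.508) did not pass and their libraries overlapped, and without that replicate both passed as higher in TC71 (0.13 and 0.14, adjusted p 0.0478 and 0.0372), where 31.0% of all genes were higher and 29.8% lower. After doxycycline, 8 were lower in TC71 and 0 higher, where 32.3% and 30.2% of all genes were. The log2 differences then ran from -1.34 for MCM6 to -0.42 for MCM4. CDC45 (-0.01, adjusted p 0.921) and PCNA (-0.04, adjusted p 0.578) did not pass, and their doxycycline libraries overlapped between the lines.

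Levels of different genes were compared per kilobase of exon. The length is that of all annotated exons of a gene, not of the transcripts present in these cells. The order of the genes therefore depends on the annotation. Under vehicle in EW8, MCM7 stood first at 193 ± 9.41 CPM per kb (SD, n = 3), followed by PCNA at 174 ± 5.07 and by MCM3 and MCM6, whose libraries overlapped at 149.5 ± 0.481 and 148 ± 2.58. MCM4 (87.4), MCM2 (67.0), MCM5 (57.0), CDC6 (32.8), GINS2 (27.6) and CDC45 (20.0 CPM per kb) came next without overlap between neighbours, but the place of MCM2 depended on the length used. After doxycycline in EW8 the order was kept but for CDC45 (22.1), which stood above GINS2 (14.9), while MCM2 and MCM5 overlapped. In TC71 PCNA stood first in both groups, at 201 ± 16.96 under vehicle and 107 ± 3.46 after doxycycline. There MCM7 and MCM3 overlapped, as did MCM2 and MCM5 and, under vehicle, MCM6 and MCM2, and GINS2 stood last at 14.8 ± 1.08 and 7.04 ± 0.496 CPM per kb.

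The subunits of the ring, which are present in equal number in the complex, were not at equal RNA levels per kb of annotated exon. MCM7, the highest, was 3.38 times MCM5, the lowest, in EW8 vehicle and 3.18 times in EW8 doxycycline. In TC71 the ratio was 2.28 under vehicle and 2.22 after doxycycline. These ratios rest on annotated exon lengths of 4386 bases for MCM7 and 7338 for MCM5. In CPM, MCM5 (418) was above MCM2 (329) in EW8 vehicle, so its last place there depends on the length. With shared exonic bases left out of the length, an alternative added after the values were seen, MCM7 was at 212 CPM per kb in EW8 vehicle. MCM2 was then at 87.8 there, no longer below MCM4 at 87.4, and their libraries overlapped. In TC71 vehicle MCM2 likewise moved above MCM6 and overlapped MCM4. On that length MCM2 stood above MCM5 without overlap in all 4 groups, and MCM7 above MCM3 in TC71 doxycycline.

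**Figure D4:**
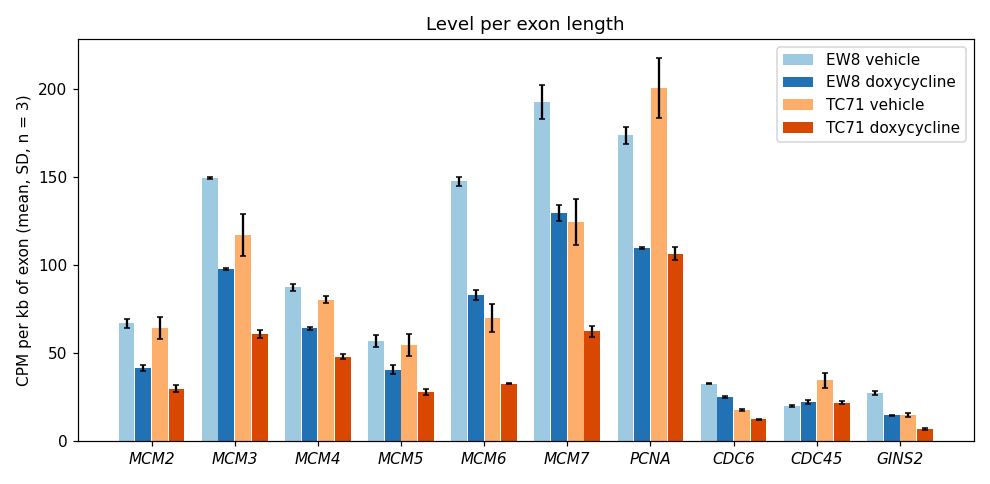
Level of each gene in CPM per kb of exon (y axis, from 0) in the 4 groups; bars are means and error bars SD of 3 libraries. MCM7 is highest in EW8 and PCNA in TC71, and GINS2, CDC6 and CDC45 are the lowest in all groups.

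Most other genes of replication and of its E2F and kinase control moved the same way. Over 6 lists holding 88 genes, none of them among the 10, 73 fell and 4 rose in EW8, and 69 fell and 6 rose in TC71. Their median log2 fold change was -0.49 and -0.54. Of all tested genes, 22.0% fell and 21.9% rose in EW8, and 20.4% fell and 25.1% rose in TC71. These shares are the background for every list count below. The lists were chosen with earlier results of these data known, so the counts are not independent of those results. In the origin licensing list 14 of 15 fell in EW8 and 12 of 15 in TC71. SKP2, a ubiquitin ligase subunit that targets CDT1 and the inhibitor p27, fell by 1.35 and 1.56 on the log2 scale, and CDC7, the kinase that acts on loaded MCM, by 0.88 and 0.77. ORC1, the cell cycle-regulated subunit of the origin recognition complex, fell by 0.70 and 0.97, while ORC5 fell by 0.27 and 0.24 and ORC6 by 0.23 and 0.34. CDT1, which loads MCM with CDC6, fell by 0.57 and 1.00, a difference between the lines of -0.44 (adjusted p 0.0329). GMNN, geminin, the inhibitor of CDT1, fell by 0.42 and 0.18 (adjusted p of the difference 0.0635).

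Helicase activation and fork genes fell for 14 of 15 in EW8 and 13 of 15 in TC71. GINS1 fell by 0.98 and 0.87, MCM10 by 0.86 and 1.06, TIPIN by 0.88 and 1.02, and DONSON by 0.29 and 0.51. GINS3, a partner of GINS2 in the GINS complex, rose by 0.36 in EW8 and 0.62 in TC71. MTBP was at -0.23 in EW8 (adjusted p 0.0480) and at -0.04 in TC71, which did not pass. Of 12 polymerase genes 9 fell and 1 rose in each line. PRIM1, a primase subunit, fell by 0.85 and 1.12, POLE2 by 0.83 and 1.03, POLD1 by 0.27 and 0.68 and POLD2 by 0.28 and 0.41. POLD4, the small subunit of polymerase delta, was the one that rose, by 1.84 and 1.10, from 1.16 and 1.83 CPM.

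Clamp loading and lagging strand genes fell for 14 of 17 in EW8 and 15 of 17 in TC71. DSCC1, of the alternative clamp loader, fell by 1.03 and 1.00, PCLAF, a PCNA-binding protein, by 0.86 and 1.17, and RFC1 by 0.40 and 0.23. RPA2, of the single-strand binding complex, fell by 0.39 in EW8 and was at -0.02 in TC71, a difference of 0.37 (adjusted p 0.000760). CHTF8 was at -0.11 in EW8, which did not pass, and fell by 0.19 in TC71. Nucleotide supply genes fell for 9 of 9 in EW8 and 8 of 9 in TC71, with medians of -0.34 and -0.79. TYMS, thymidylate synthase, fell by 0.54 and 1.12, and TK1, thymidine kinase, by 0.31 and 1.07. The ribonucleotide reductase subunits fell as well, RRM1 by 0.34 and 0.32 and RRM2 by 0.21 and 0.51. SLC29A1, a nucleoside transporter, fell by 0.69 and 0.79, and DTYMK by 0.21 and 0.47.

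The E2F, RB and S-phase kinase list was the most mixed. Of 20 genes, 13 fell and 2 rose in EW8, and 12 fell and 4 rose in TC71. Among all tested genes 21.9% rose in EW8 and 25.1% in TC71. E2F2, an activator E2F, fell from 152 ± 2.72 to 85.3 ± 2.07 CPM in EW8 and from 97.4 ± 7.96 to 36.7 ± 2.38 CPM in TC71. E2F5 fell by 0.77 and 0.74 and E2F8 by 0.63 and 1.31 on the log2 scale. CDKN1A, which encodes the cyclin-dependent kinase inhibitor p21, rose from 22.0 ± 1.36 to 202 ± 10.5 CPM in EW8 and from 28.9 ± 11.2 to 94.7 ± 3.13 CPM in TC71. E2F7, a repressor E2F, was at 56.9 ± 4.87 and 54.7 ± 0.846 CPM in EW8 and rose from 51.4 ± 1.91 to 268 ± 5.25 CPM in TC71, a difference between the lines of 2.44 (adjusted p 1.4e-12). CCNE1, cyclin E1, rose by 0.76 and 0.61. TFDP2, a partner of the E2F factors named here after its values were seen, rose by 0.20 in TC71 (adjusted p 0.0444).

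Mitosis genes, taken for comparison, fell for 16 of 16 in EW8 and 14 of 16 in TC71, with medians of -0.42 and -0.33. Among all tested genes 22.0% fell in EW8 and 20.4% in TC71. TOP2A fell by 0.65 and 0.66, AURKB by 0.46 and 0.74, CENPE by 0.61 and 0.35, CCNB2 by 0.44 and 0.25 and TPX2 by 0.22 and 0.21. CDC20 fell by 0.21 in EW8 and was at -0.10 in TC71, which did not pass. The difference between the lines passed in edgeR for 0 of the 16 mitosis genes, with 2 at an unadjusted p under 0.05, and for 1 in DESeq2, 0 in limma-voom and 3 without TC71 vehicle replicate 1. Of the 88 genes of the replication and E2F lists 15 had a more negative and 4 a more positive response in TC71. Of all tested genes 7.07% had a more negative and 12.2% a more positive one, a split that depended on scaling, filter and libraries. The 4 more positive list genes were E2F7, RPA2 and, named after their values were seen, RB1 (0.43) and RBL2 (0.32) of the RB family. Among the 15 was CDKN1A, which rose in both lines, by 3.20 in EW8 and 1.71 in TC71. The lower median of the 10 genes in TC71 than of the mitosis list was not tested.

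**Figure D5:**
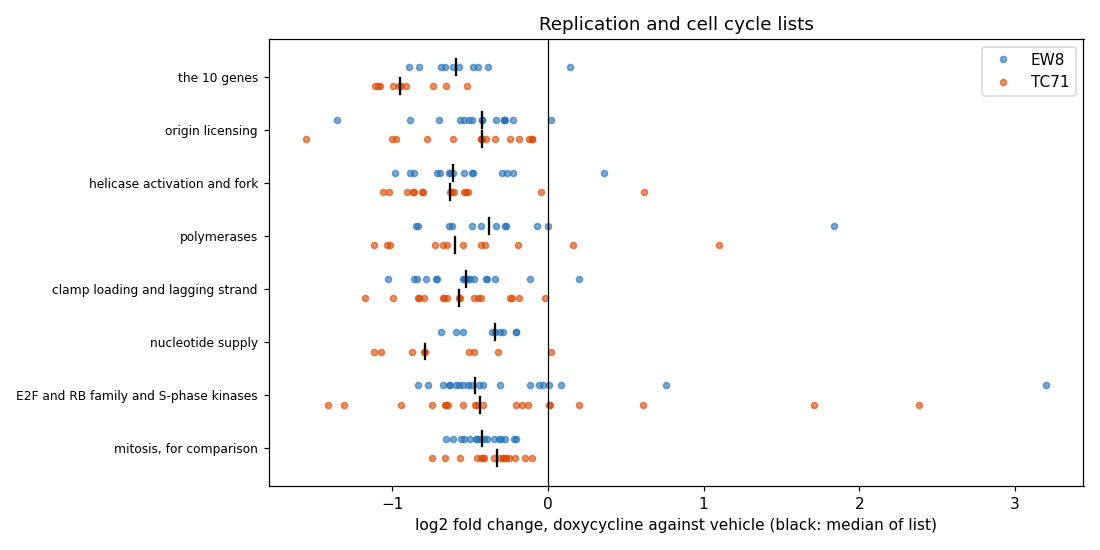
Log2 fold change of doxycycline against vehicle (x axis) for each gene of the 10 and of 7 lists, in EW8 and TC71; points are genes and black ticks are list medians. Most points lie left of 0, with CDKN1A, POLD4 and, in TC71, E2F7 far to the right.

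The 10 genes varied together across the 12 libraries, CDC45 excepted. Pearson's r between a gene and the mean of the other 9, on centred log2 CPM, was 0.92 to 0.997 for the 6 MCM genes and 0.96 for GINS2, 0.82 for CDC6, 0.73 for PCNA and 0.08 for CDC45. These libraries share lines and treatments, so that the values describe the 4 groups more than 12 independent points. The genes most like the mean of the 10 among 14919 genes over 1 CPM were E2F2 (r = 0.99), CYP4F22 (0.99), KIF2C (0.99), PPP1R1A (0.99), STMN1 (0.99), DUSP26 (0.99), WDR76 (0.99) and NLE1 (0.98). Among the 4 most opposite were LGALS3 (-0.995), ADIRF-AS1 (-0.99) and PLEKHB2 (-0.99), where ADIRF-AS1 is an antisense gene counted without strand. By Spearman's rho 1 of the 8 and 0 of the 4 were again at the ends, and r exceeded 0.9 for 472 genes.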

How the data were processed

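RNA from EW8 and TC71 cells was sequenced by the study as paired-end reads, mapped to hg38 with STAR and summarized over exons, without strand, with featureCounts 2.0.1 and the GENCODE 29 annotation (per the file headers and the study's methods; the STAR version is not given in the sources used here). The authors deposited raw counts per gene, with the exon length of each gene in another column. Reads overlapping 2 genes were left out by the authors' counting. The 10 genes and the lists were chosen with earlier results of these data known.

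From the counts, TMM factors (0.945 to 1.04), filterByExpr and the quasi-likelihood test of edgeR 4.0.16 (R 4.3.3) were computed over 21013 genes, which held 99.95% of counts, with 1 mean per group. Within EW8 and within TC71, doxycycline was compared with vehicle. The 2 responses were then compared, as were the lines under each treatment. Adjusted p is Benjamini-Hochberg over all genes, with a threshold of 0.05. The fits were tested on simulated data: sizes were recovered without bias and few unchanged genes were called, but log2 changes near 0.5 were called only in part with 3 libraries a group, after which the requirement on calls was limited to changes of 1. A change that did not pass can thus still be present. The simulation changed few genes, as many up as down, in EW8 doxycycline only, and held no difference between the lines. In the data 2401 genes rose and 711 fell past a log2 fold limit of 1 in EW8. Bias of the scaling under such uneven changes was not tested. Genes of the lists were named by rule: the 2 lowest and 2 highest changes that passed in each line, with ORC1, CDT1 and GMNN, and the 8 genes most like and 4 most opposite to the 10 (0.5 CPM added before log2). Some genes that the rule names are not reported here. Alternatives were DESeq2 1.42.0, limma-voom 3.58.1, other scalings and filters, halved counts, a replicate block and leaving out each of the 12 libraries.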

Additional observations from a re-analysis of the deposited data

Results flagged for a closer look

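The response to doxycycline differed between the lines, by the interaction test of edgeR, for 8 of the 10 genes: MCM2 (-0.42), MCM3 (-0.34), MCM4 (-0.29), MCM5 (-0.47), MCM6 (-0.27), MCM7 (-0.43), PCNA (-0.25) and CDC45 (-0.80), each as TC71 minus EW8 on the log2 scale. It also differed for the induced genes JUN (0.73) and FOS (2.21). Of all tested genes 7.07% had a more negative and 12.2% a more positive response in TC71. That split depended on the scaling, the filter and the libraries in the fit. Among the named genes of the lists, CDT1 (-0.44), POLD1 (-0.41), RRM2 (-0.30), TYMS (-0.57), TK1 (-0.76), E2F2 (-0.58), E2F8 (-0.67) and CDKN1A (-1.49) had a more negative response in TC71, and RPA2 (0.37), RB1 (0.43), RBL2 (0.32) and E2F7 (2.44) a more positive one. The cause was not tested.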

How the results depend on the processing

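The counts of the 10 genes called lower, 9 in EW8 and 10 in TC71, were the same under every scaling, filter, tool and left-out library that was run. With a log2 fold limit of 1 added they were 0 and 3, and the counts were 0 for the difference of the responses, 1 for the lines under vehicle and 4 under doxycycline. Of all 21013 genes tested, 603 were more negative and 878 more positive in the difference past that limit. Between the lines 3974 were lower and 2446 higher in TC71 under vehicle, and 3874 and 2642 under doxycycline. The counts of the 10 genes between the lines were not tested against these shares. With that limit, chosen to be combined after seeing the data, leaving out 1 library gave 0 genes in EW8, 3 to 7 in TC71, 0 to 1 for the difference (CDC45 without TC71 vehicle replicate 1), 0 to 1 under vehicle (MCM6 lost without TC71 vehicle replicate 1 or EW8 doxycycline replicate 1 or 2) and 3 to 4 under doxycycline. Without the limit it gave 6 to 10 genes for the difference, 7 to 9 for the lines under vehicle, and 8 under doxycycline. For the 88 genes of the replication and E2F lists it gave 62 to 72 genes lower in EW8 and 65 to 73 in TC71, and 4 and 5 to 6 higher. Same-numbered libraries did not deviate together over all tested genes (correlations from -0.03 to 0.01). Many of those genes have low counts, so this does not settle whether the numbers pair samples, and the labels do not say. With a replicate block within each line, 9 and 10 genes were lower, and 6 differed in response between the lines, MCM6 and PCNA being lost, as were MCM4 and PCNA between the lines under vehicle. The median level of the 10 genes per kb was 77.2, 53.0, 67.2 and 31.3 CPM in EW8 vehicle, EW8 doxycycline, TC71 vehicle and TC71 doxycycline. By library size alone it was 79.6 in EW8 vehicle and 30.0 (29.97) in TC71 doxycycline. Without shared exonic bases, chosen after seeing the data, it was 87.6, 59.3, 74.7 and 35.9. Under Spearman's rho 1 of the 8 most alike genes was kept.

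Of 1070 results of the 10 genes under alternatives, 1029 kept direction and call, 24 lost a call, 9 gained one and 8 changed sign. The sign changed for differences near 0: over left-out libraries, the lines under vehicle differed by -0.10 to 0.13 for MCM2, -0.10 to 0.14 for MCM5 and -0.14 to 0.0085 for MCM4, and under doxycycline by -0.12 to 0.0205 for CDC45. MCM2 was 0.03 without EW8 doxycycline replicate 1 or 2 and 0.13 without TC71 vehicle replicate 1, MCM5 was 0.03 and 0.14, MCM4 was 0.0085 without TC71 vehicle replicate 1, and CDC45 was 0.0205 without TC71 doxycycline replicate 3. The cause was not tested. In TC71, upper-quartile scaling gave 5645 genes lower and 4453 higher against 4295 and 5283, and moved the median of all genes from 0.00 to -0.10. The lowest count of the 10 genes in a library was 898, for GINS2 in TC71 doxycycline replicate 1. The fit with counts halved adds no sampling noise, so it does not test the effect of depth. Having 3 libraries a group limits the detection of small changes.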
